A study of Homo sapiens with 18 samples.

Results

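The G1/S cyclins and kinases described here are 10 genes, picked by name from the 23399 genes of the deposited table: the D-type cyclin genes CCND1, CCND2 and CCND3, the E-type cyclin genes CCNE1 and CCNE2, the cyclin A gene CCNA2, the kinase genes CDK2, CDK4 and CDK6, and the phosphatase gene CDC25A. All 10 passed the filter on low values, a mean of at least 1 eRPKM over the libraries, and were tested. Their mRNA was measured by RNA-seq in U2OS-MycER cells, a human osteosarcoma line transduced with a retrovirus that encodes Myc fused to the estrogen receptor. The fusion protein stays inactive until 4-hydroxytamoxifen (OHT) is added. Every culture carried MycER and was reverse-transfected, either with siRNAs that silence RAD21, a subunit of the cohesin ring (siRAD21), or with a non-targeting siRNA against Renilla luciferase (siCtrl). OHT (400 nM) or its solvent ethanol was given together with the siRNA, and RNA was taken 24 or 48 h later. The 18 libraries form 8 groups, with 3 libraries each for siCtrl and siCtrl OHT at 48 h and 2 for each other group. The methods of the study call its libraries biological replicates and name a pair per condition, so what the additional libraries of the groups of 3 are is not stated. The labels do not say which libraries came from separate cultures, and p-values measure the spread between these libraries.

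Cells pass from G1 into S phase once cyclin-dependent kinases have phosphorylated the retinoblastoma protein, which then releases E2F transcription factors. D-type cyclins bind CDK4 and CDK6 and begin this step in response to growth signals. E-type cyclins bind CDK2, complete it and help fire replication origins, and cyclin A takes over CDK2 during S phase. CDC25A removes the inhibitory phosphates from CDK2. CCNE1, CCNE2, CCNA2 and CDC25A are known E2F targets, and CCND2, CDK4 and CDC25A have been described as Myc targets.

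Recovered depths ran from 9647501 to 12678599 reads per library, with a median of 11965575 at 24 h and 9934467 at 48 h. Across genes, libraries of 1 group correlated at r = 0.982 to 0.990 on the log2 scale. The siRAD21 OHT libraries at 48 h differed by no more than the sampling noise of independent reads, with a chi-square per gene of 0.978 over 11721 genes. The other pairs within groups gave 1.04 to 4.21, the lowest being siRAD21 at 24 h. Removal of duplicate reads would lower the value expected from noise, by an amount that was not worked out. For means the siRAD21 OHT libraries at 48 h were counted as 1 sample, without SD. The fits hold both, so SE and p-values count them as 2 samples. RAD21 itself was at 93.3, 96.9 and 89 eRPKM in siCtrl cells at 48 h and at 11.2 and 11.3 eRPKM in siRAD21 cells. Of the genes listed for osteosarcoma and osteoblasts, VIM (105 to 129 eRPKM), SPARC (60.6 to 86.4), COL1A1 (14.5 to 65.8) and RUNX2 (1.9 to 8.5) were present in every library. COL1A2 was at most 0.109 eRPKM and listed at 0 in 4 libraries.

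On the GRCh37 build that the deposited values use, CCND2 lies on chromosome 12 from 4378937 to 4414519 (plus strand), CCNE1 on chromosome 19 from 30302898 to 30315219 (plus strand), CDK2 on chromosome 12 from 56360565 to 56366573 (plus strand) and CDC25A on chromosome 3 from 48198636 to 48229907 (minus strand). eRPKM counts reads over the exons of each gene. Some exon bases belong to a neighbour as well: 1629 of CCNE2 are shared with INTS8, 1369 of CDK4 with TSPAN31, 254 of CCNA2 with EXOSC9 and 89 of CDK2 with PMEL. These are bases of the GENCODE exons, 4397 for CCNE2, 3094 for CDK4, 2748 for CCNA2 and 3887 for CDK2. The deposited values rest on 2750, 2002, 2798 and 2293 bases, which is fewer for each gene but CCNA2. Whether the shared stretches were counted is not known. The library kit keeps no strand, so any reads from them cannot be assigned to 1 gene.

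RefSeq promoter windows on GRCh38.p14, from 250 bases before to 50 bases after a start site, were at hand for 6 of the 10 genes, 9 windows in all. CCND1, CCND2, CCNE2 and CDK2 had no entry. The windows were searched on both strands for CACGTG, the E-box bound by Myc with Max, and for an E2F site spelled TTTCCCGC, TTTGGCGC, TTTCGCGC or TTTGCCGC. An E-box occurs in 7.26% of all 35116 promoter windows of this length and an E2F site in 3.31%. The windows of CDC25A and CCNE1 are shown because both genes were called at 48 h with siRAD21 and with OHT in RAD21-depleted cells, and that of CDK4 because it holds more E-boxes than the window of any other gene in the group. Matches are in capitals, and each sequence runs 5′ to 3′ on the strand of the gene.

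CDC25A, chr3:48188368-48188667, minus strand: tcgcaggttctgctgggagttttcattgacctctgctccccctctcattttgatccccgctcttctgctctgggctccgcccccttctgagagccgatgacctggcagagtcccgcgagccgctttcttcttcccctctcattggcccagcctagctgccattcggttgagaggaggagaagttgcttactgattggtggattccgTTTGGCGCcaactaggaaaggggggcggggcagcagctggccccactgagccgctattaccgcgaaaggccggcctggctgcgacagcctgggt
CCNE1, chr19:29811741-29812040, plus strand: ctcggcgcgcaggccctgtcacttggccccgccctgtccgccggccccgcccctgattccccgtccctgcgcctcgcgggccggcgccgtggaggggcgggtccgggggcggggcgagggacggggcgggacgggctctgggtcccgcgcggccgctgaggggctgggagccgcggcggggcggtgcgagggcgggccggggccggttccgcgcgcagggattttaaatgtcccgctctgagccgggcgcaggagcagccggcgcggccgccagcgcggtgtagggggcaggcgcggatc
CDK4, chr12:57752261-57752560, minus strand: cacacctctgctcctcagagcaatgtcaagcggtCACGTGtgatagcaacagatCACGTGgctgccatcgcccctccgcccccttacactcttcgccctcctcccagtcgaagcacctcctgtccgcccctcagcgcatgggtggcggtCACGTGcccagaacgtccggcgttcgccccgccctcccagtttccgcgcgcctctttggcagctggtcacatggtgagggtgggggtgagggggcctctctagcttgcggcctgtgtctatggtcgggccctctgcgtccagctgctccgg

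The CDC25A window holds 1 E2F site, TTTGGCGC, whose first base is 44 bases before the start site (-44), and no CACGTG. The CCNE1 window holds neither set of letters. In the CDK4 window CACGTG stands 3 times, at -216, -196 and -101. At least 3 copies are found in 33 of all windows (0.094%). A single further E-box lies in 1 of the CDK6 windows, at position 31 after the start. These are matches of letters and do not show that a factor bound there.

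All 10 genes were well expressed. Per kilobase of exon, CCND2 was the most abundant in every group, with 76.4 ± 0.43 eRPKM (SD, n = 2) in siCtrl cells at 24 h and 81 ± 1.35 (SD, n = 3) at 48 h. CDK4 (70.4 ± 3.29), CCNA2 (70.3 ± 3.05), CDK2 (62.4 ± 2.97), CDK6 (56.4 ± 1.41) and CCNE1 (55.9 ± 1.74) followed in siCtrl cells at 48 h. CCND1 (47.4 ± 1.37), CDC25A (34.8 ± 1.62), CCND3 (21.6 ± 0.89) and CCNE2 (20.8 ± 2.32) were lower. The highest group mean was 2.59 times the lowest for CDC25A, 2.28 times for CCNE2, 2.12 times for CCNE1 and 1.81 times for CCND2. For the other genes this ratio lay between 1.23 (CCND1) and 1.61 (CCND3).

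**Figure D1:**
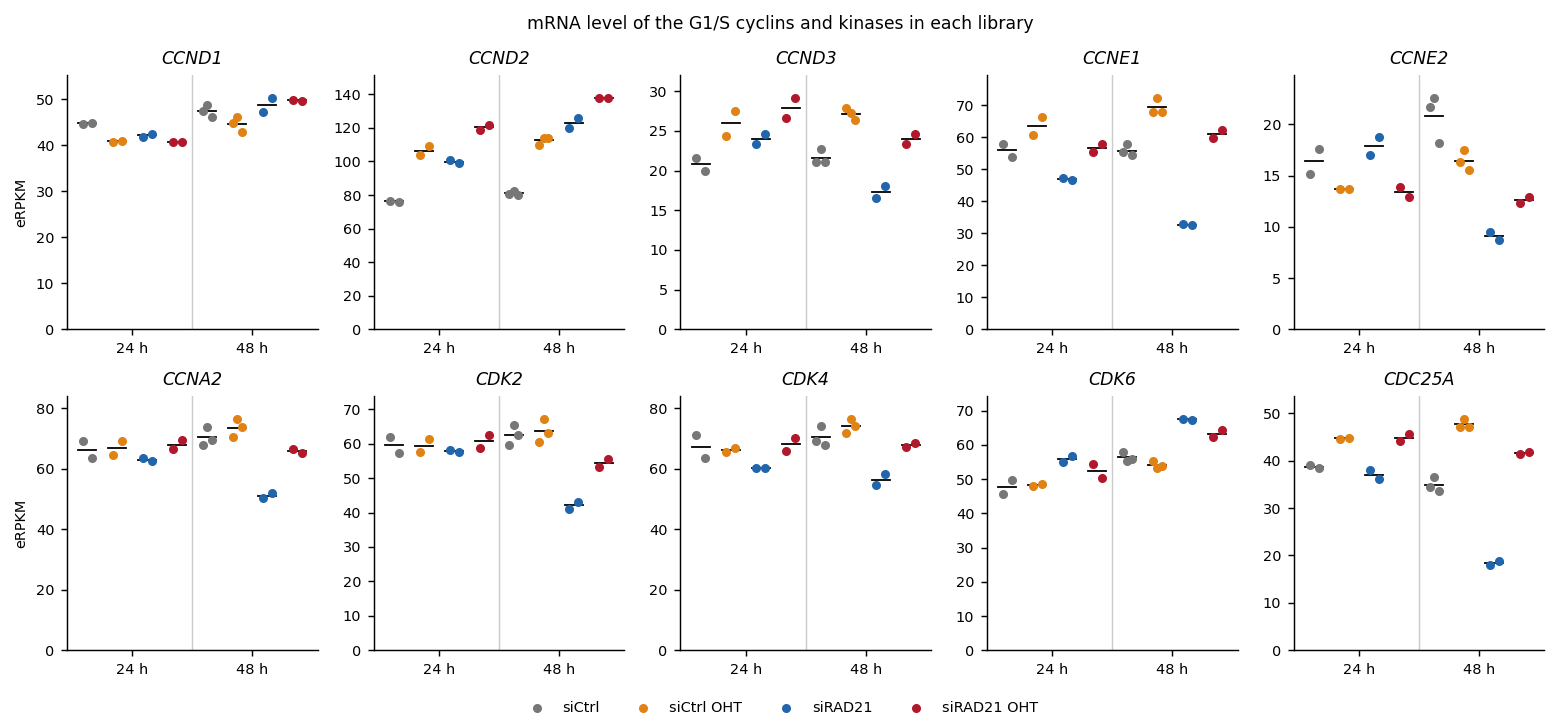
Each panel shows 1 gene, with its eRPKM in every library on a linear axis from 0 (points, coloured by siRNA and OHT) and the mean of each group (black lines), 24 h on the left and 48 h on the right of the grey line. At 48 h the siRAD21 libraries of CCNE1 (32.8 and 32.7), CCNE2 (9.53 and 8.73) and CDC25A (17.9 and 18.9) lie below every other library of the same gene. The same holds for CCNA2, CDK2, CDK4 and CCND3.

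The first question is what RAD21 silencing did to these genes without OHT. At 24 h, none of the 10 was called, that is, none had an adjusted p below 0.05 together with a log2 fold change past 0.5 in either direction (limma on log2(eRPKM + 0.5), Benjamini-Hochberg), while 8.43% of all genes tested were called. At an unadjusted p below 0.05 there were 5 of the 10 (36.9% of all genes), and 4 passed the adjusted p alone (25.8% of all genes). voom on the recovered reads called 0 of the 10 as well. CCND2 stood at 76.7 and 76.1 eRPKM in siCtrl and at 101 and 98.9 in siRAD21 libraries, a log2 fold change of 0.38 ± 0.04 (SE). CCNE1 stood at 57.9 and 54 against 47.2 and 46.6 eRPKM (log2 fold change -0.25 ± 0.05), and CDK6 at 45.5 and 49.8 against 54.9 and 56.7 (0.23 ± 0.05). The libraries of the 2 conditions did not overlap for any of these 3 genes. Nor did they for CCND1, CCND3, CDK4 or CDC25A, though CCND1 and CDC25A had adjusted p of 0.173 and 0.376 (limma, Benjamini-Hochberg). The share of all genes that separate so was not counted, here or later, and such separation is a description only.

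At 48 h, CCND2 rose and CCNE1, CCNE2, CDK2 and CDC25A fell in siRAD21 cells. These are 5 of 10 genes called, where 23.7% of all genes tested were called. By direction, 4 of 10 fell against 11.2% of all genes, and 1 of 10 rose against 12.6%. In bulk RNA, fewer cells that express a gene and less of its RNA per cell cannot be told apart.

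Among the D-type cyclins, CCND2 was at 80.8, 82.5 and 79.8 eRPKM in siCtrl and at 120 and 126 in siRAD21 libraries at 48 h. Its log2 fold change was 0.60 ± 0.03, or 1.52-fold (limma, Benjamini-Hochberg adjusted p = 5.41e-09). CCND3 was at 21.1, 22.7 and 21.1 against 16.6 and 18.1 eRPKM. Its log2 fold change of -0.31 ± 0.06 was under the fold threshold (limma, Benjamini-Hochberg adjusted p = 0.000763). CCND1 was at 47.5, 48.8 and 46 against 47.2 and 50.3 eRPKM, and its libraries overlapped. CCND2 was higher in every siRAD21 library than in every siCtrl library at both times.

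Both E-type cyclin genes fell. CCNE1 was at 55.3, 57.8 and 54.5 eRPKM in siCtrl and at 32.8 and 32.7 in siRAD21 libraries at 48 h, a log2 fold change of -0.76 ± 0.05 or 0.59 times the control level (limma, Benjamini-Hochberg adjusted p = 1.47e-08). CCNE2 was at 21.7, 22.6 and 18.2 against 9.53 and 8.73 eRPKM, a log2 fold change of -1.14 ± 0.09 or 0.453 times the control (limma, Benjamini-Hochberg adjusted p = 1.15e-07). CCNE2 was the gene of the 10 with the largest fall at 48 h. CDK2, the kinase that these cyclins bind, was at 59.5, 65.4 and 62.4 against 41.1 and 43 eRPKM. It fell by 0.56 on the log2 scale (SE 0.06, limma with Benjamini-Hochberg adjusted p = 9.8e-07), and under quantile normalization its log2 fold change was -0.45 and no longer past the threshold. CCNA2, the other partner of CDK2, was at 67.8, 73.7 and 69.5 against 50.4 and 51.9 eRPKM. Its log2 fold change of -0.45 ± 0.05 stayed under the threshold in the deposited values, and reached -0.54 when the removal of duplicate reads was undone.

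CDC25A was at 34.4, 36.6 and 33.5 eRPKM in siCtrl and at 17.9 and 18.9 in siRAD21 libraries at 48 h. It fell to 0.534 times the control, a log2 fold change of -0.90 ± 0.04 (limma, Benjamini-Hochberg adjusted p = 1.08e-09). The kinases that bind D-type cyclins stood apart from each other in sign. CDK4 was at 69.2, 74.1 and 67.9 against 54.5 and 58.2 eRPKM (log2 fold change -0.32 ± 0.05), and CDK6 at 58, 55.3 and 56 against 67.6 and 67.3 (0.26 ± 0.04). Neither passed the fold threshold, and the libraries of the 2 conditions did not overlap for either gene.

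**Figure D2:**
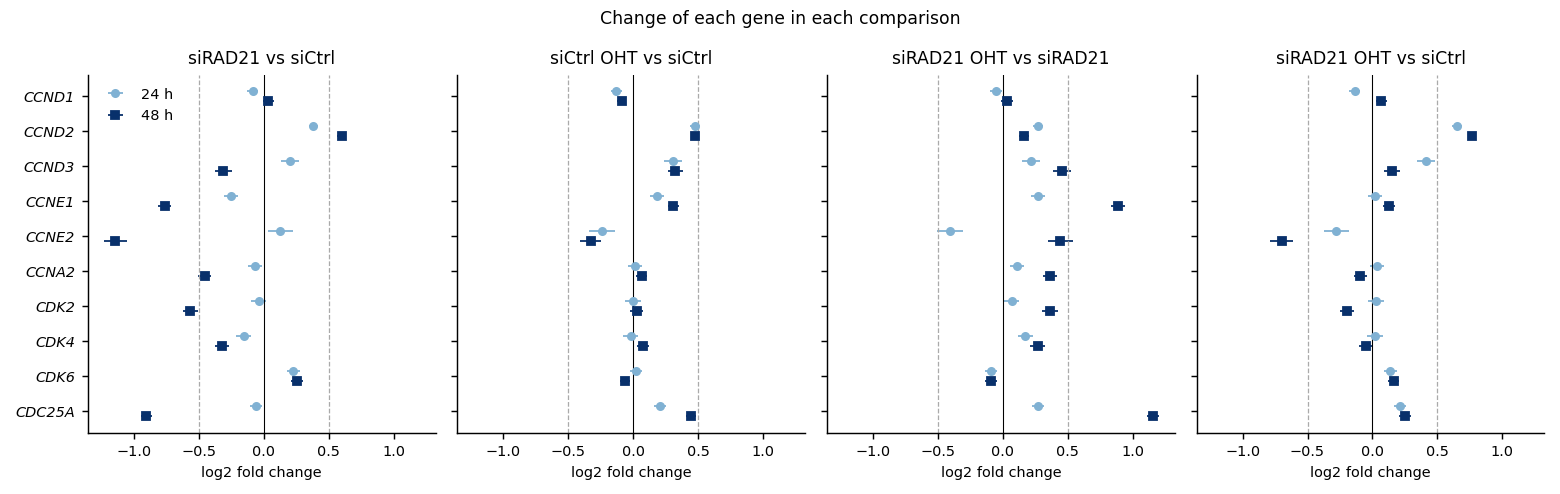
The log2 fold change of each gene (horizontal axis, points with bars of 1 SE) is plotted for 4 comparisons at 24 h (light circles) and 48 h (dark squares), with dashed lines at the fold threshold of 0.5 in each direction. In siRAD21 cells, CCNE2 (-1.14), CDC25A (-0.90), CCNE1 (-0.76) and CDK2 (-0.56) lie below the lower line at 48 h and none does at 24 h, and in siRAD21 OHT against siRAD21 cells CDC25A (1.16) and CCNE1 (0.89) alone lie above the upper line, both at 48 h.

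The difference between the effects of siRAD21 at 48 h and at 24 h was tested as a contrast of its own. CCNE2 (-1.27 ± 0.13 on the log2 scale), CDC25A (-0.84 ± 0.06), CDK2 (-0.52 ± 0.08), CCND3 (-0.51 ± 0.09) and CCNE1 (-0.51 ± 0.07) passed both thresholds, 5 of 10 genes against 10.7% of all genes. Each difference was negative, so the log2 fold change with siRAD21 had a lower value at 48 h. For CCND3 it went from 0.20 ± 0.07 at 24 h (limma, Benjamini-Hochberg adjusted p = 0.0446) to -0.31 ± 0.06 at 48 h. At 24 h CCND3 was at 21.6 and 20 eRPKM in siCtrl and at 23.4 and 24.6 in siRAD21 libraries. CCNE2 was at 15.2 and 17.6 eRPKM in siCtrl and at 17 and 18.8 in siRAD21 libraries at 24 h, which overlap. CDC25A was at 39 and 38.4 against 38 and 36.1 eRPKM, and CDK2 at 61.9 and 57.2 against 58.2 and 57.6. The calls of CCND3, CCNE1 and CDK2 lie near the threshold: without siCtrl 24 h replicate 2, or without siCtrl 48 h replicate 2, only CCNE2 and CDC25A were called, and without siRAD21 48 h replicate 1 CCNE1 was called besides these. RAD21 itself was at 18.1 and 18.6 eRPKM in siRAD21 libraries at 24 h (0.265 times the control) and at 11.2 and 11.3 at 48 h (0.126 times). Depth was also lower at 48 h. The part of silencing strength and of depth in these differences was not tested.

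In siCtrl cells the question is what OHT, given to activate MycER, did without RAD21 silencing. No group had OHT without MycER, so an effect of OHT itself cannot be told apart from MycER activation. No gene of the 10 was called at 24 h (8.78% of all genes) or at 48 h (17.9%) by limma on the eRPKM values or by voom on the recovered reads. At an unadjusted p below 0.05 there were 6 of the 10 at each time, against 37% of all genes at 24 h and 58.3% at 48 h. The adjusted p alone was passed by 5 at 24 h (26.5% of all genes) and 6 at 48 h (53.3%), shares of the 10 that at 48 h lie near those of all genes. CCND2 came nearest to the fold threshold. It was at 104 and 109 eRPKM with OHT against 76.7 and 76.1 without at 24 h (log2 fold change 0.48 ± 0.04), and at 110, 114 and 114 against 80.8, 82.5 and 79.8 at 48 h (0.47 ± 0.03). With the values centred on the median of each library its log2 fold change at 48 h was 0.51 and was called, as was its 24 h value of 0.51 without siCtrl OHT 24 h replicate 1.

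CDC25A was at 47.1, 48.8 and 47 eRPKM with OHT at 48 h, a log2 fold change of 0.45 ± 0.04. CCND3 (27.9, 27.3 and 26.4 eRPKM, log2 fold change 0.32 ± 0.06) and CCNE1 (67.8, 72.4 and 67.9 eRPKM, 0.31 ± 0.04) were higher in every OHT library as well. CCNE2 had the opposite sign, at 16.3, 17.5 and 15.5 eRPKM (-0.33 ± 0.08). CCND1 was at 44.8, 46.2 and 42.8 eRPKM, overlapping its controls, with a log2 fold change of -0.09 ± 0.04. CCNA2, CDK2 and CDK4 overlapped between the conditions at both times. Of the differences between the OHT effects at 48 h and at 24 h none was called, against 1.77% of all genes, and CDC25A was the only 1 of the 10 with an adjusted p below 0.05 there (4.17% of all genes; log2 difference 0.24 ± 0.06; limma, Benjamini-Hochberg adjusted p = 0.0409). At an unadjusted p below 0.05 there was also 1 of the 10, against 19% of all genes, and voom called 0.

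Cell type markers moved with OHT in both directions. EPCAM, an epithelial adhesion molecule, ran from 4.24 to 5.06 eRPKM in siCtrl and from 10.3 to 12.9 in siCtrl OHT libraries at 48 h, and from 2.56 to 3.82 in siRAD21 and 6.82 to 7.3 in siRAD21 OHT libraries. It was called with OHT in both siRNA conditions at both times. CDH1 (0.559 to 1.74 eRPKM) was not, and PTPRC (at most 0.322) and PECAM1 (at most 0.767) stayed below the filter on low values. None of these 4 listed markers was at 0 in any library. The sum of the 4 ranged from 5.42 to 5.82 eRPKM in siCtrl, 11.1 to 11.7 in siCtrl OHT, 5.28 to 5.64 in siRAD21 and 10.7 to 11.6 in siRAD21 OHT libraries at 24 h. At 48 h it ranged from 5.89 to 6.79, 12.5 to 15, 4.44 to 5.86 and 8.31 to 8.44. Of the genes listed for osteosarcoma and osteoblasts, RUNX2, a transcription factor of osteoblasts, was called lower with OHT in all 4 comparisons. At 48 h it ran from 6.51 to 8.5 eRPKM in siCtrl and 3.45 to 5.01 in siCtrl OHT libraries (log2 fold change -0.84), and from 5.19 to 6.23 in siRAD21 and 1.9 to 2.04 in siRAD21 OHT libraries (-1.33). At 24 h its log2 fold changes were -0.66 and -0.61. COL1A1, a collagen chain of bone, was called lower at 48 h, at 14.5 to 37.4 against 28.1 to 59.1 eRPKM in siCtrl cells (-0.91) and at 16.7 against 57.1 to 65.8 in siRAD21 cells (-1.84), and was not called at 24 h. SPARC and VIM were not called with OHT in any of the 4. The part of these markers in the results with OHT was not tested.

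In RAD21-depleted cells at 24 h, OHT gave no call among the 10 genes, against 11.9% of all genes, although 6 of the 10 had an unadjusted p below 0.05 (44.5% of all genes) and the same number an adjusted one (35.2%). voom called 0. CCNE2 was at 17 and 18.8 eRPKM in siRAD21 and at 13.9 and 12.9 in siRAD21 OHT libraries (log2 fold change -0.41 ± 0.10). CDC25A was at 38 and 36.1 against 44.1 and 45.6 eRPKM (0.27 ± 0.05), and CCNE1 at 47.2 and 46.6 against 55.5 and 57.8 (0.27 ± 0.05).

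At 48 h, CCNE1 and CDC25A rose with OHT in RAD21-depleted cells, 2 of 10 genes against 12.4% of all genes called higher and 28.6% called in either direction. CDC25A rose from 17.9 and 18.9 eRPKM to 41.3 and 41.8, which is 2.23-fold (log2 fold change 1.16 ± 0.05; limma, Benjamini-Hochberg adjusted p = 4.37e-10). CCNE1 rose from 32.8 and 32.7 eRPKM to 59.8 and 62.2, which is 1.85-fold (log2 fold change 0.89 ± 0.05; limma, Benjamini-Hochberg adjusted p = 1.13e-08). This comparison shares the siRAD21 libraries with that of siRAD21 against siCtrl. Each fit holds both siRAD21 OHT libraries, and with their mean in their place the same 2 genes were called.

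Another 6 genes were past the adjusted p but under the fold threshold, so that 8 of 10 passed the adjusted p alone, against 60.4% of all genes. CCND3 was at 16.6 and 18.1 eRPKM in siRAD21 and at 23.4 and 24.6 in siRAD21 OHT libraries (log2 fold change 0.46 ± 0.07). CCNE2 was at 9.53 and 8.73 against 12.3 and 12.9 eRPKM (0.44 ± 0.10). CDK2 was at 41.1 and 43 against 53.2 and 55.4 (0.37 ± 0.06), and CCNA2 at 50.4 and 51.9 against 66.5 and 65.3 (0.36 ± 0.05). In CDK4 the levels were 54.5 and 58.2 against 67.3 and 68.5 eRPKM (0.27 ± 0.06). CCND2 had 120 and 126 against 138 and 138 eRPKM (0.16 ± 0.04), and with quantile normalization the sign of its log2 fold change turned, to -0.02. CCND3 was called without siRAD21 48 h replicate 2 (0.52). CCNE2 was called without replicate 1 of that group (0.50) and under quantile normalization (0.53).

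Whether OHT acted differently in siRAD21 and in siCtrl cells was tested with the siRNA by OHT interaction. At 48 h, CCNE2 (log2 difference 0.77 ± 0.13; limma, Benjamini-Hochberg adjusted p = 0.00105), CDC25A (0.71 ± 0.06; adjusted p = 1.05e-05) and CCNE1 (0.58 ± 0.07; adjusted p = 0.000105) were called, 3 of 10 genes against 7.3% of all genes. For CCNE2 the OHT effect was negative in siCtrl cells (-0.33) and positive in siRAD21 cells (0.44). For CDC25A (0.45 and 1.16) and CCNE1 (0.31 and 0.89) it was positive in both. CCND2 had an interaction of -0.31 ± 0.05, under the fold threshold. At 24 h limma called none of the 10 genes and 0% of all genes, with 2 of the 10 and 906 of all genes (6.04%) at an unadjusted p below 0.05, and voom called 0 of the 10 and 19 of all genes.

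Set against siCtrl cells without OHT, 2 of the 10 genes were called in siRAD21 OHT cells at 48 h, where 28% of all genes were called. The adjusted p alone was passed by 6 of the 10, against 59.7% of all genes. CCND2 rose 1.7-fold, from 80.8, 82.5 and 79.8 to 138 and 138 eRPKM (log2 fold change 0.77 ± 0.03; limma, Benjamini-Hochberg adjusted p = 3.31e-10). CCNE2 was at 12.3 and 12.9 eRPKM and fell to 0.616 times the control (log2 fold change -0.70 ± 0.09; limma, Benjamini-Hochberg adjusted p = 1.08e-05). CCNE1, at 59.8 and 62.2 against 55.3, 57.8 and 54.5 eRPKM, had a log2 fold change of 0.13 ± 0.05, and CDC25A, at 41.3 and 41.8 against 34.4, 36.6 and 33.5, one of 0.25 ± 0.04. For both genes every siRAD21 OHT library lay above every siCtrl library. At 24 h, CCND2 alone was called, at 119 and 122 eRPKM (log2 fold change 0.65 ± 0.04), against 13.1% of all genes.

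The order of the 8 groups differed between genes. CCND2 ran from siCtrl at 24 h as the lowest to siRAD21 OHT at 48 h as the highest, and of its 7 pairs of neighbouring groups only siRAD21 at 48 h and siRAD21 OHT at 24 h overlapped. CDC25A was highest in siCtrl OHT cells at 48 h and lowest in siRAD21 cells at 48 h, with 2 overlapping pairs of neighbours. CCNE1, CCNE2, CCNA2, CDK2, CDK4 and CCND3 were likewise lowest in siRAD21 cells at 48 h, whereas CDK6 was highest there. CCNE1 had 3 overlapping pairs, CDK6 had 4, and CCNE2, CCNA2, CDK2, CDK4 and CCND3 had 5 each. CCND1 was highest in siRAD21 OHT cells at 48 h and lowest in siRAD21 OHT cells at 24 h, with 3. How many pairs overlap for genes in general was not counted, so these numbers are a description only. In siCtrl cells without OHT, none of the 10 genes was called between 48 and 24 h (12.4% of all genes). By limma 4 of the 10 had an unadjusted p below 0.05 (52.4% of all genes) and 3 an adjusted one (45.2%), namely CCNE2 (log2 fold change 0.34 ± 0.09), CDK6 (0.24 ± 0.04) and CDC25A (-0.15 ± 0.04), and voom called 0.

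The balance between genes of a family was compared on the eRPKM scale, which is scaled to exon length but holds the effect of duplicate removal described after it. CCND2 made up 54% of the summed eRPKM of the 3 D-type cyclins in siCtrl cells at 48 h (53.6 to 54.3 over the libraries), 61.1% with OHT, 65.1% with siRAD21 (64.9 to 65.4) and 65.2% with both. CCND3 made up 14.4% in siCtrl and 9.16% in siRAD21 cells. The sum went from 150 eRPKM in siCtrl to 189 in siRAD21 and 212 in siRAD21 OHT cells. With duplicate removal undone by calculation, the share of CCND2 was 57.5% in siCtrl, 67.4% with OHT, 72.8% with siRAD21 and 73.5% with both, and the sum went from 165 to 250 and 284. For the E-type cyclins the sum at 48 h was 76.7 eRPKM in siCtrl (72.7 to 80.4), 41.9 in siRAD21 (41.4 to 42.3) and 73.6 in siRAD21 OHT cells (72.1 to 75.1), so that the last range overlaps the first. CCNE2 supplied 27.1% of this sum in siCtrl, 21.8% in siRAD21, 19.2% in siCtrl OHT and 17.1% in siRAD21 OHT cells. CDK6 made up 44.5% of the summed eRPKM of CDK4 and CDK6 in siCtrl cells (42.7 to 45.6) and 54.5% in siRAD21 cells (53.6 to 55.4), while the sum was 127 and 124 eRPKM. Undone, the share of CDK6 was 43.3% and 55.5%, and that of CCNE2 in the E-type cyclins 25.1% in siCtrl and 20.7% in siRAD21 cells.

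The removal of PCR duplicates bears on these values, CCND2 most of all. When reads that start at the same base of the same strand are kept once, a gene can hold at most 2 reads for each base of its exons. CCND2 used from 41.2% of this limit in siCtrl cells at 48 h to 68.3% in siRAD21 OHT cells at 24 h, so such a limit would compress its differences. CCNA2 reached 39.7%, CDK4 39.6% and CCNE1 37.8%, and CCNE2 used between 4.83% and 11.2%. With the removal undone by calculation, CCND2 had a log2 fold change of 0.93 with siRAD21 at 48 h in place of 0.60, and of 0.61 at 24 h in place of 0.38, which was then called. With OHT in siCtrl cells the values became 0.72 at 24 h and 0.65 at 48 h, and both were called. CCNE1 (-0.86), CDC25A (-0.965) and CCNE2 (-1.18) kept their direction and their call with siRAD21 at 48 h. This correction takes read starts as spread evenly over the exon bases of both strands, which was not tested. It was added after the data had been seen.

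**Figure D3:**
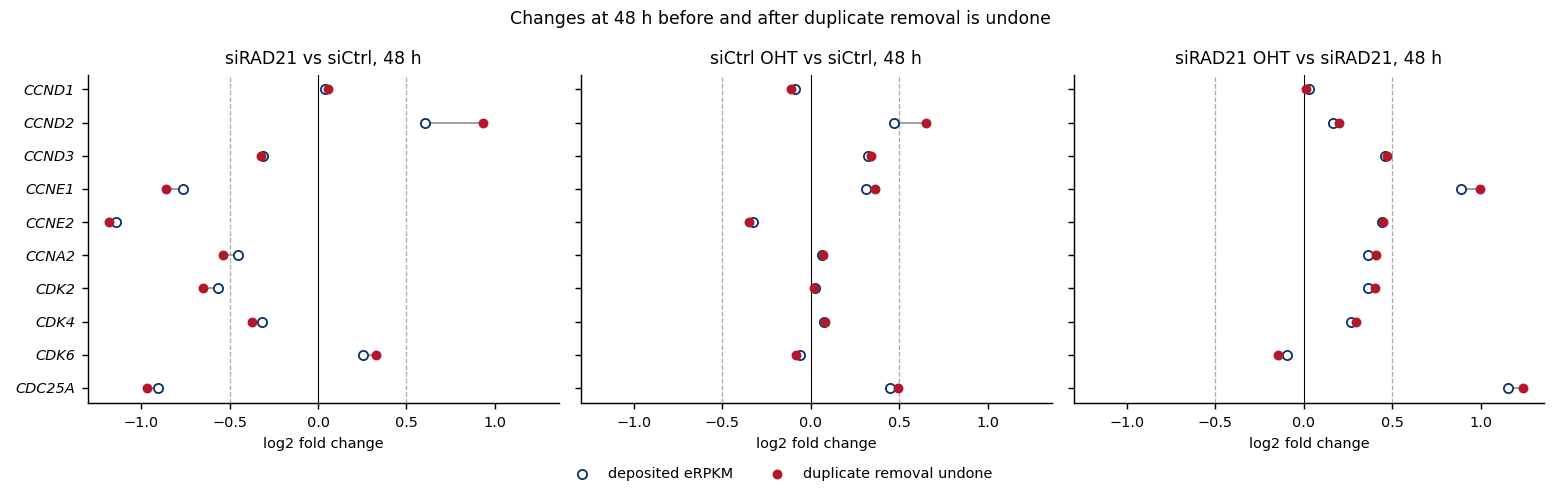
The log2 fold change of each gene (horizontal axis) is shown at 48 h in 3 comparisons, from the deposited eRPKM (open circles) and with duplicate removal undone (filled circles), with dashed lines at the fold threshold of 0.5. CCND2 moves farthest in the first 2 comparisons, from 0.60 to 0.93 with siRAD21 and from 0.47 to 0.65 with OHT in siCtrl cells, whereas with OHT in siRAD21 cells CCNE1 (0.89 to 0.995) and CDC25A (1.16 to 1.24) move more than CCND2 (0.16 to 0.20).

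Of 31 other genes of the G1/S pathway, 30 were tested, and CDKN2A did not pass the filter. With siRAD21 at 48 h 9 of the 30 fell, where 11.2% of all genes were called lower, and 1 rose, where 12.6% were called higher, with a median log2 fold change of -0.17 against -0.01 over all genes tested. The fall of SKP2, which targets CDK inhibitors for degradation, was the largest, from 53.7, 57.3 and 54.3 eRPKM to 15.6 and 15.5 (log2 fold change -1.79 ± 0.05). CDKN2B, an inhibitor of CDK4 and CDK6, fell from 2.42, 2.18 and 2.91 eRPKM to 0.805 and 0.713 (-1.25 ± 0.15). FBXW7, which marks cyclin E for degradation, rose from 20.1, 19.9 and 19 eRPKM to 33.3 and 33.5 (0.75 ± 0.04). The other 7 that fell were RBL1, E2F1, E2F2, E2F8, CDC25C, CDC6 and CDT1, so the list held regulators of both signs, and E2F1, E2F2, CDC6 and CDT1 act in S phase entry.

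With OHT in siCtrl cells at 48 h 5 of the 30 genes were called, near the 17.9% of all genes called in either direction. All 5 were CDK inhibitors that fell (10.1% of all genes were called lower). CDKN2C went from 24.9, 27.4 and 28.2 eRPKM to 12.3, 11.6 and 14.2 (log2 fold change -1.05 ± 0.09), and CDKN2B from 2.42, 2.18 and 2.91 to 1.3, 0.859 and 1.12 (-0.92 ± 0.13). CDKN1B, CDKN1C and CDKN2D were the other 3. CDKN1A, a further CDK inhibitor of the list, was not called and had the opposite sign (0.14 ± 0.04). Its log2 fold change with OHT in siRAD21 cells at 48 h was 0.08 ± 0.05, again without a call. Relative to untreated controls, CDKN1A was called higher at 48 h with both treatments combined (0.57 ± 0.05). With siRAD21 alone it stayed just under the fold threshold (0.49 ± 0.05). With OHT in siRAD21 cells at 48 h, 5 rose (12.4% of all genes were called higher) and 3 fell (16.2% lower). These 8 of 30 are near the 28.6% of all genes called in either direction. E2F2 rose from 13.2 and 13 eRPKM to 22.9 and 23.9 (0.81 ± 0.07), and CDT1, which helps load the replicative helicase, from 21.1 and 22.4 to 38.1 and 38.9 (0.81 ± 0.08). CDKN1C, the inhibitor p57, fell from 9.35 and 10.1 to 5.21 and 4.38 eRPKM (-0.95 ± 0.13), and CDKN2C from 19.9 and 21.4 to 13.3 and 10.9 (-0.75 ± 0.10). This list, like the 10 genes, was chosen with results of these data known, so its counts are a description.

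Each of the 10 genes was also matched to the gene most like it over the 18 libraries, by Pearson's r on log2(eRPKM + 0.5) among 10896 genes with a mean of at least 5 eRPKM. CDC25A was nearest to SLC25A10 (r = 0.991), CCNE1 to WBP11 (0.982), CDK2 to ZWINT (0.979), CDK6 to QKI (0.977), CCNA2 to FEN1 (0.974) and CCND2 to NELL2 (0.968). CDK4 was nearest to CYB5B (0.966), CCND3 to MEPCE (0.933), CCNE2 to TMEM237 (0.912) and CCND1 to CHMP5 (0.906). Within the 10 genes the highest values were those of CCNA2 with CDK2 (0.961), CCNE1 with CDC25A (0.937) and CCNA2 with CDK4 (0.934), and the lowest was that of CDK2 with CDK6 (-0.71). The libraries share groups and depth differs between times, so these values describe the pattern only.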

How the data were processed

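Ribosomal RNA was removed from total RNA and unstranded TruSeq libraries were sequenced on a HiSeq2000. Trimmed reads were mapped by the authors against hg19 (TopHat2), and PCR duplicates were taken out before counting. The authors deposited the result as eRPKM, an RPKM that counts exonic reads, and no other values enter here. The submitters' processing notes name TopHat2 2.0.8, SAMtools and featureCounts 1.4.5. The authors called differential expression with DESeq2 on counts, which are not analysed here. Groups came from the labels.

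Here log2(eRPKM + 0.5) of the 18 libraries was fitted with limma 3.58.1 in R 4.3.3, with a mean for each of 8 groups and a variance trend. The 14993 genes with a mean of at least 1 eRPKM were tested, with Benjamini-Hochberg adjustment in each of 13 comparisons. Calls needed both an adjusted p under 0.05 and a log2 fold change beyond 0.5 in either direction, as in the methods of the study. Fold changes on this scale understate the change of low genes. Whole reads were recovered for 22022 genes from the exon length and depth that make the values whole, which accounts for 99.83 to 99.86% of each depth. Those recovered exon lengths set the limit that duplicate removal puts on a gene. Positions and overlaps came from GENCODE on GRCh37, and promoters from RefSeq on GRCh38.p14. Figures were drawn with matplotlib 3.10.9 under Python 3.11.15, from tables read with pandas 2.3.3 and numpy 2.4.6. The procedure was tested on simulated data, which held neither a limit from duplicate removal nor near-identical libraries.

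The 10 genes and the gene lists were chosen with earlier results of these data known. The other genes named are the 2 called pathway genes with the largest change in each direction at 48 h and, for each of the 10, the gene with the highest r. CDKN1A is named besides these, as the tested CDK inhibitor without a call with OHT in siCtrl cells at 48 h. Alternatives were other pseudocounts (1 and 0.1), other filters, median centring, quantile normalization, only the groups compared, a replicate block, averaging the siRAD21 OHT 48 h libraries, no fold threshold and leaving out each library. A block with crossed numbers, the undoing of duplicate removal and voom applied to recovered reads were chosen after seeing the data. At 48 h same-numbered siCtrl and siCtrl OHT libraries deviated together from their means (r = 0.5, 0.357 and 0.265 over 10906 genes). Between other groups such values reached 0.31 at 24 h and 0.279 at 48 h. The labels do not state that replicate numbers mark pairs, so whether these libraries are pairs is not known. The main fit holds no block. The other groups share fewer than 3 numbers.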

Additional observations from a re-analysis of the deposited data

Results flagged for a closer look

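The effect of siRAD21 differed between 48 h and 24 h for 5 of the 10 genes, by the contrast of the 2 effects in limma, which called 10.7% of all genes. The log2 difference (48 h minus 24 h) was -1.27 for CCNE2, -0.843 for CDC25A, -0.524 for CDK2, -0.511 for CCND3 and -0.511 for CCNE1. The effect of OHT at 48 h differed between siRAD21 and siCtrl cells for 3 of the 10, by the interaction term, which called 7.3% of all genes. The log2 difference (siRAD21 minus siCtrl) was 0.771 for CCNE2, 0.709 for CDC25A and 0.578 for CCNE1. Both contrasts use the siRAD21 and siCtrl libraries at 48 h. No group had its libraries tested for outliers, since none holds 4.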

How the results depend on the processing

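The 67 changes of single genes with an adjusted p below 0.05 kept their direction under 18 settings that leave out a library and 12 others, except CCND2 with OHT in siRAD21 cells at 48 h under quantile normalization (-0.0201). Of the 18 called changes 5 lost their call in at least 1 setting, and 6 others gained one. Of the 63 changes without such a p, 26 changed sign in some setting.

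Without a fold threshold the genes of the 10 called, beside the share of all genes, numbered 4 (siRAD21, 24 h, 25.8%), 9 (siRAD21, 48 h, 57.7%), 5 (siCtrl OHT, 24 h, 26.5%), 6 (siCtrl OHT, 48 h, 53.3%), 6 and 8 (siRAD21 OHT against siRAD21, 24 and 48 h, 35.2% and 60.4%), 6 and 6 (siRAD21 OHT against siCtrl, 34.4% and 59.7%), 6 (interaction, 48 h, 17.3%), 1 (difference of the siCtrl OHT effects between times, 4.17%) and 3 (siCtrl, 48 h against 24 h, 45.2%). With duplicate removal undone, 1 was called (CCND2) with siRAD21 at 24 h, against 9.05% of all genes. With siCtrl OHT 1 (CCND2) was called at each time, against 9.31% of all genes at 24 h and 19% at 48 h. Median centring gave 1 with siCtrl OHT at 48 h (CCND2, 17.7% of all genes). For the difference of the siRAD21 effects between times it gave 3 (10.6%), as did quantile normalization (12.1%). Leaving out a library gave 2 to 5 there and 0 to 1 with siCtrl OHT at 24 h. CDK2 with siRAD21 at 48 h (-0.452) and CCNE1 in the interaction (0.498) lost their call under quantile normalization, and CCNE2 with OHT in siRAD21 cells at 48 h (0.531) gained one. Of 403 counts for the other pathway genes 38 moved by over 1.5 times.

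With the replicate block the counts for siRAD21 were 0 at 24 h (8.7% of all genes) and 5 at 48 h (23.6%). For siCtrl OHT they were 0 at 24 h (8.83%) and 0 at 48 h (18%). At 48 h there were 2 for siRAD21 OHT against siRAD21 (28.7%) and 3 for the interaction (8%). The difference of the siRAD21 effects gave 5 (10.5%). These counts were as without the block, and it changed no other call. At 24 h deviations of same-numbered siCtrl and siCtrl OHT libraries correlated at -0.322, and a block with crossed numbers gave the same counts. Apart from siCtrl with siCtrl OHT at 48 h, such correlations ran from -0.431 to 0.31 at 24 h and from -0.0178 to 0.279 at 48 h. With 2 libraries in most groups a lone library left after leaving 1 out is assumed to vary like the others. Intervals from the depth cover counting error only.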
